A study of Macaca fascicularis with 2 samples.

Results

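Skeletal muscle holds a small population of macrophages between its fibres. Here 38 genes that mark macrophages and the complement system were followed in the gastrocnemius, a calf muscle, of the cynomolgus macaque Macaca fascicularis. The genes were taken from a list by name: 10 resident scavenger receptors, the 3 subunits of C1q, 16 pan-myeloid genes, 5 sensing and recruitment receptors and 4 other complement genes. All 38 were found among the 28162 gene names of the files, 37 by symbol and CYBB by its NCBI gene number. The study deposited 2 RNA sequencing libraries of polyadenylated RNA: 1 labelled lean, from an animal or animals on a chow diet, and 1 labelled non-lean, on a high fat diet. The labels state no age, strain or number of animals for either library. Per the series, lean and obese muscle were compared for their gene expression.

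Resident macrophages of muscle clear debris and iron through scavenger receptors such as CD163, and they are the main local source of C1q, the recognition unit that starts the classical complement pathway. C1q works together with the proteases C1r and C1s, which are made largely by fibroblasts and other stromal cells, and the pathway then splits C4, C2 and C3. Pan-myeloid genes are shared by several kinds of myeloid cell, though not each gene by every kind. Receptors such as CCR2 are known from monocytes that enter a tissue from the blood.

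The lean library held 15983348 counts and the non-lean library 12731971. Values are given as counts and as scaled CPM, counts set to a common library total with sizes corrected by the trimmed mean of M-values. Log2 ratios are non-lean over lean, and brackets give the 95% exact interval, which covers counting error only. With 1 library per group there is no replicate error and no test of the groups, and every difference below is one between these 2 libraries. They may differ in animal, sampling and preparation as well as in diet, and these cannot be told apart. In bulk tissue, fewer cells of a type and less RNA per cell cannot be told apart either. Levels are not compared between genes, since the counts are not corrected for transcript length.

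Macrophage and complement genes were lower in the non-lean library, lowest of all LYVE1, VSIG4, CD14, F13A1, C1QC and C1QB in that order, while CD74 and ITGAX had close to equal levels. Of the 38 members, 31 had a mean scaled CPM of at least 1, the filter for genes called tested, and all 31 had a log2 ratio below 0, against 50.8% of all 13703 tested genes. At least 2-fold lower with an interval below 0 were 16 of the 31, against a background of 7.15% of all tested genes. None was at least 2-fold higher with an interval above 0, where the background was 4.90%. The interval lay below 0 for 21 members (background 28.7%), and for the other 10 it held 0. The median log2 ratio of the 31 was -1.02, and that of all tested genes was -0.01. Without the filter, 17 of 38 members were at least 2-fold lower and 0 were higher, and the backgrounds were 5.64% and 4.85% of all genes with a count. All members but CD74 had a mean CPM under 30, and among tested genes under that level the background of genes at least 2-fold lower was 8.58%.

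**Figure D1:**
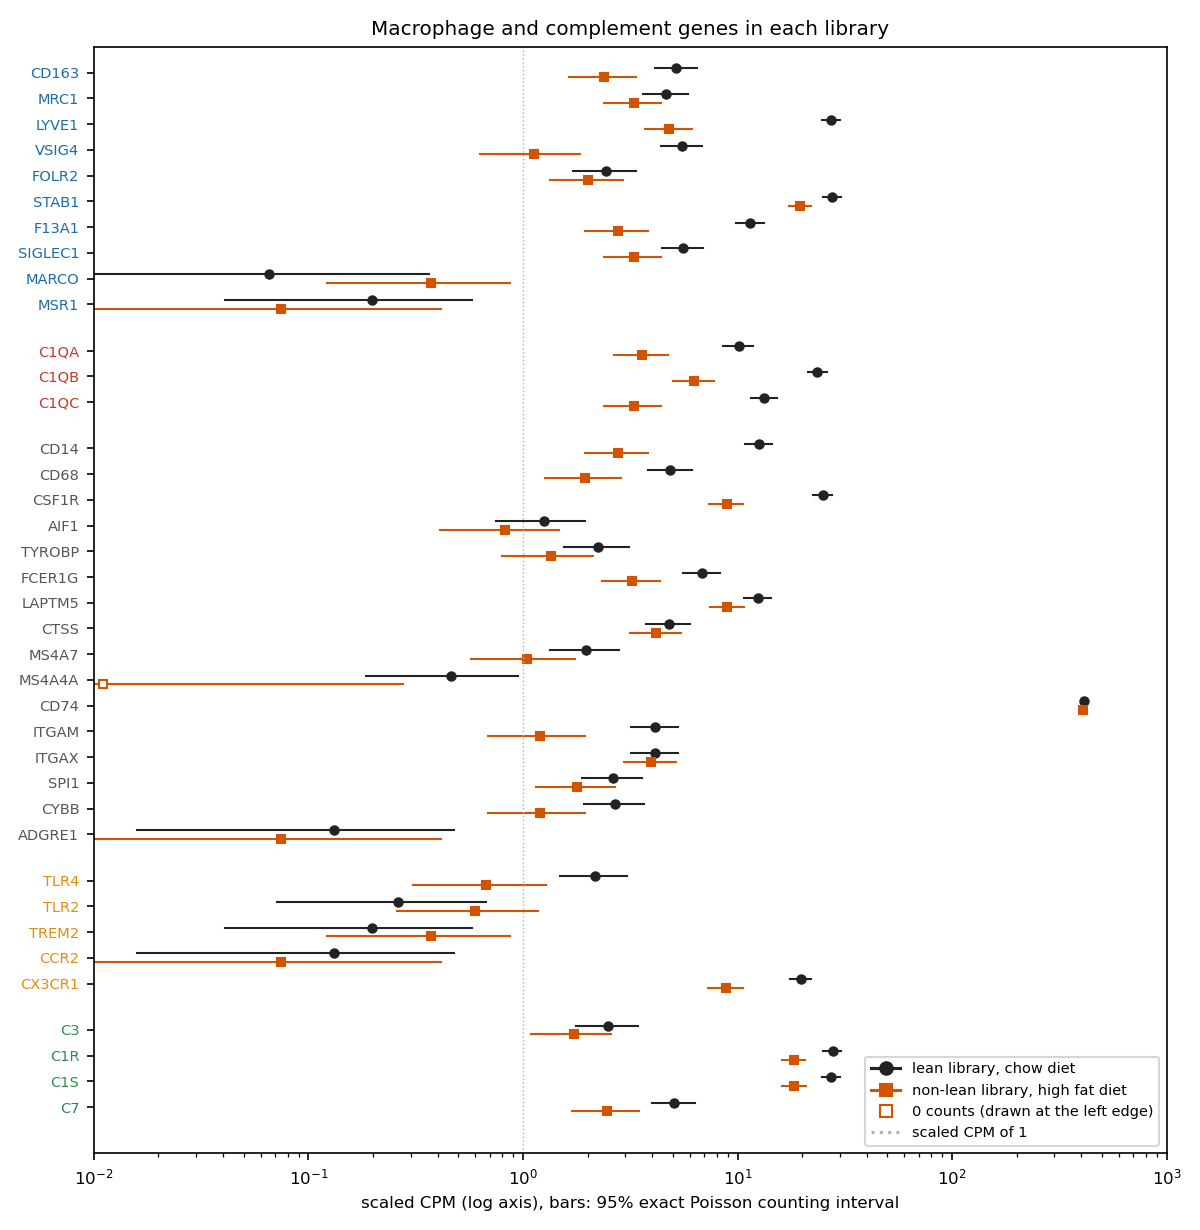
Scaled CPM of the 38 members on a log axis, with circles for the lean and squares for the non-lean library, bars for 95% exact Poisson counting intervals and label colours for the 5 roles. The squares lie left of the circles for 35 members, and CD74 stands apart at 409.9 and 406.4.

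Among the scalings tried, only the one by total counts changed the sign of tested members, and it did so for 2. Scaling by total counts lifts the median of all tested genes by 0.14. The 930 genes then at least 2-fold higher make up 56.0% of the genes that far apart, while in the scaling used here the 672 higher genes are 40.7% and 980 were lower. Under total counts 29 of the 31 tested members kept a ratio below 0, and CD74 was at 0.13 and ITGAX at 0.08. At least 2-fold lower were 13 members, against a background of 5.33% of the 13721 genes tested under that scaling.

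Counts of both markers that name the macrophage, CD163 and C1QB, were present in each library. The resident scavenger receptors differed in the size of their ratios. LYVE1, a hyaluronan receptor of perivascular macrophages that lymphatic endothelium also carries, had 415 lean and 64 non-lean counts. Its scaled CPM was 27.3 against 4.79, which is 5.66-fold lower, at -2.50 [-2.91, -2.13]. VSIG4, the complement receptor of resident macrophages that binds C3 fragments, had 84 and 15 counts, 4.79-fold lower at -2.26 [-3.20, -1.50]. F13A1, the A subunit of coagulation factor XIII and a macrophage marker, had 174 and 37 counts, 4.09-fold lower at -2.03 [-2.60, -1.53]. CD163, the haemoglobin scavenger receptor, had 79 and 32 counts, or 5.19 and 2.39 CPM, at -1.10 [-1.76, -0.51]. These 4 were the members of the group that were at least 2-fold lower.

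The other tested resident receptors had ratios nearer to 0, with intervals that overlapped that of CD163. STAB1, a scavenger receptor of macrophages and of sinusoidal endothelium, had 419 and 262 counts, 27.5 and 19.6 CPM, at -0.49 [-0.72, -0.26]. SIGLEC1, which binds sialic acids, had 85 and 44 counts, at -0.76 [-1.32, -0.22]. The mannose receptor MRC1 had 71 and 44 counts at -0.50 [-1.08, 0.06], and the folate receptor FOLR2 had 37 and 27 at -0.26 [-1.04, 0.49]. Both of these intervals held 0, so for MRC1 and FOLR2 no difference was detectable at this depth. The scavenger receptors MARCO, with 1 and 5 counts, and MSR1, with 3 and 1, were below the filter. The median of the 8 tested receptors was -0.93, and over all 10 it was -0.90.

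All 3 C1q subunits were lower, and in the scaling used here each interval ended below -1. C1QB had 359 lean and 84 non-lean counts, 23.6 and 6.28 CPM, which is 3.74-fold lower at -1.90 [-2.27, -1.56]. C1QC had 202 and 44 counts, 4.00-fold lower at -2.0 [-2.52, -1.54]. C1QA had 154 and 48, 2.80-fold lower at -1.48 [-1.99, -1.02], and its ratio was -1.34 with total counts. The C1q molecule is built from all 3 chains, and their genes lie side by side in the order C1QB, C1QC, C1QA in RefSeq genes of the T2T-MFA8v1.1 assembly. Within the summed C1q counts, 715 lean and 176 non-lean, C1QB made up 50.2% (95% Clopper-Pearson interval 46.5 to 53.9) and 47.7% (40.2 to 55.4). C1QA made up 21.5% (18.6 to 24.7) and 27.3% (20.8 to 34.5), and C1QC 28.3% (25 to 31.7) and 25% (18.8 to 32.1). The shares overlapped within counting error, so a change in the balance of the chains was not detectable.

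The remaining complement members were lower by less. The protease C1R had 422 and 244 counts, 27.7 and 18.2 CPM, at -0.60 [-0.84, -0.37]. Its partner C1S had 417 and 245 counts, 27.4 and 18.3 CPM, at -0.58 [-0.81, -0.35]. Counts of C1R per count of C1S were 1.01 (lean) and 0.996 (non-lean). C7, a part of the membrane attack complex, had 77 and 33 counts, 2.03-fold lower at -1.02 [-1.67, -0.43]. C3, on which all complement pathways meet, had 38 and 23 counts at -0.53 [-1.35, 0.25], an interval that held 0. The median of these 4 was -0.59, beside -1.90 for the C1q subunits.

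**Figure D2:**
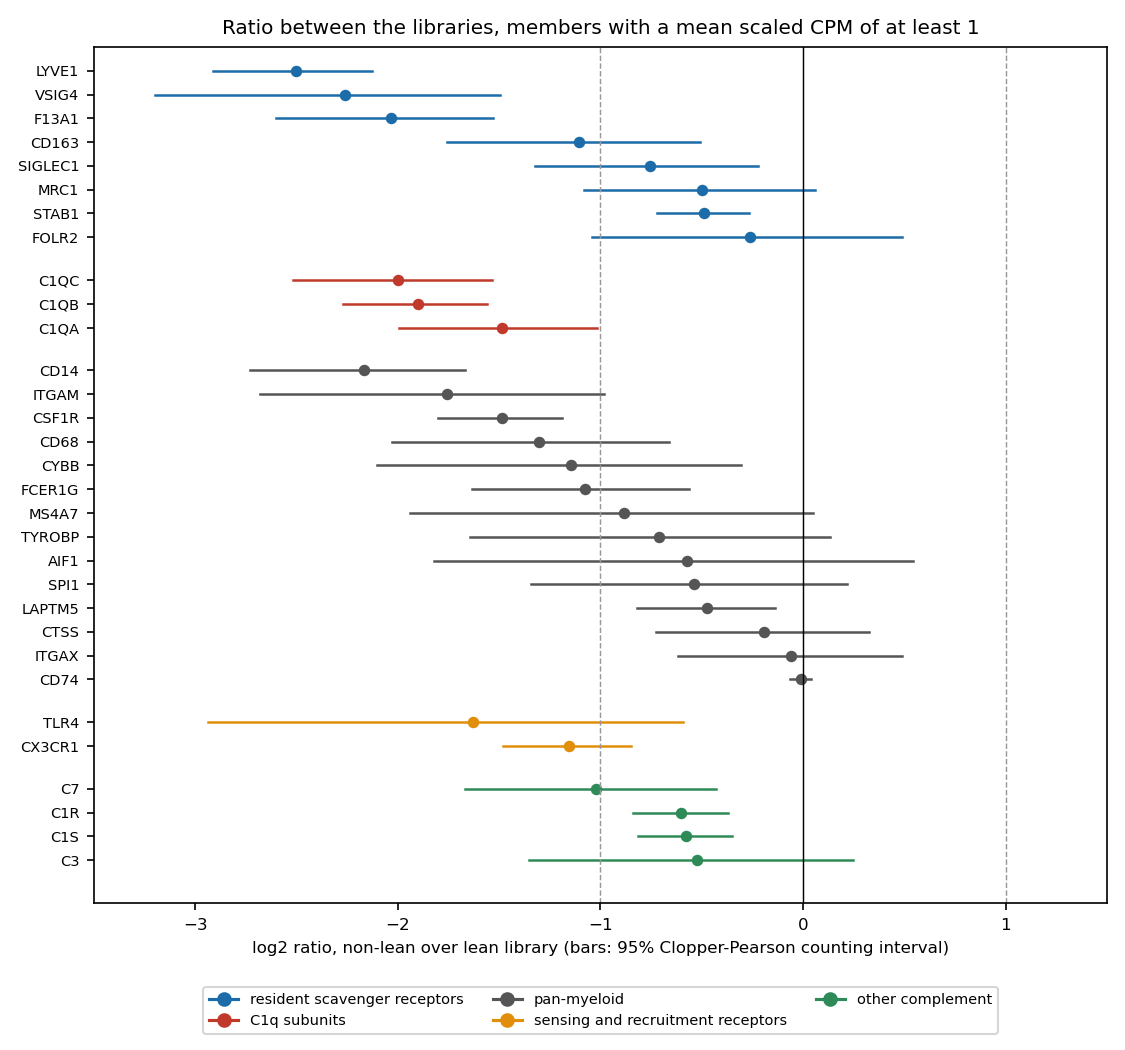
Log2 ratio, non-lean over lean, for the 31 tested members, ordered within each role, with 95% Clopper-Pearson counting intervals and dashed lines at 2-fold. The C1q subunits lie between -2.0 and -1.48, and the pan-myeloid genes spread from CD14 at -2.17 to CD74 at -0.01.

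Pan-myeloid genes ranged from -2.17 to -0.01. CD14, the co-receptor for lipopolysaccharide, had 191 lean and 37 non-lean counts, 12.6 and 2.77 CPM, 4.49-fold lower at -2.17 [-2.73, -1.67]. ITGAM, the alpha chain of complement receptor 3 (CD11b), had 63 and 16 counts, 3.38-fold lower at -1.76 [-2.68, -0.98]. CSF1R, the receptor that keeps macrophages alive, had 381 and 119 counts, 25 and 8.90 CPM, 2.80-fold lower at -1.49 [-1.80, -1.19]. The lysosomal glycoprotein CD68 (74 and 26 counts) was at -1.30 [-2.03, -0.66]. CYBB, the catalytic subunit of the phagocyte oxidase, had 41 and 16 counts and was at -1.14 [-2.10, -0.31]. The signalling adaptor FCER1G had 104 and 43 counts and was at -1.08 [-1.64, -0.56]. Besides these 6, which were at least 2-fold lower, only LAPTM5 among the tested members of the group had an interval below 0. LAPTM5, a lysosomal membrane protein of blood cells, had 190 and 120 counts at -0.47 [-0.82, -0.14].

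Among the other tested pan-myeloid genes the intervals held 0. CD74, the invariant chain of class II antigen presentation, had 6238 and 5434 counts, 409.9 and 406.4 CPM, at -0.01 [-0.07, 0.04]. This is the narrowest interval of the list, because CD74 alone made up 57.1% (56.1 to 58.0) of all member counts of the lean library and 73.6% (72.6 to 74.6) of those of the non-lean one. Which cells of the tissue the CD74 counts came from was not tested. ITGAX, the alpha chain of complement receptor 4 (CD11c), had 63 and 53 counts at -0.06 [-0.62, 0.49]. The protease CTSS, which trims the invariant chain, had 73 and 56 at -0.19 [-0.72, 0.33]. SPI1, the master transcription factor of the myeloid lineage, had 40 and 24 at -0.54 [-1.34, 0.22]. AIF1 (19 and 11 counts), the adaptor TYROBP (34 and 18) and MS4A7 (30 and 14) had ratios of -0.58, -0.71 and -0.89, with intervals up to 0.54, 0.13 and 0.05. Below the filter, MS4A4A had 7 lean and 0 non-lean counts, which is at least 2.05-fold lower against a floor of 3 counts per library. Its interval lay below 0, with an upper end of -0.34. ADGRE1, a macrophage marker in mice, had 2 and 1 counts. The median of the 14 tested pan-myeloid genes was -0.80.

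Of the sensing and recruitment receptors, 2 of 5 passed the filter. CX3CR1, the fractalkine receptor of patrolling monocytes and tissue macrophages, had 300 lean and 118 non-lean counts, 19.7 and 8.82 CPM, at -1.16 [-1.48, -0.85]. TLR4, the receptor for lipopolysaccharide that works with CD14, had 33 and 9 counts, 3.10-fold lower at -1.63 [-2.94, -0.59]. Near the detection limit in both libraries were CCR2, the receptor for CCL2 on inflammatory monocytes, with 2 and 1 counts, TREM2, a lipid-sensing receptor, with 3 and 5, and TLR2 with 4 and 8. Each of these 3 intervals held 0. A library count of 3 corresponds to 0.197 (lean) and 0.224 CPM (non-lean).

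**Figure D3:**
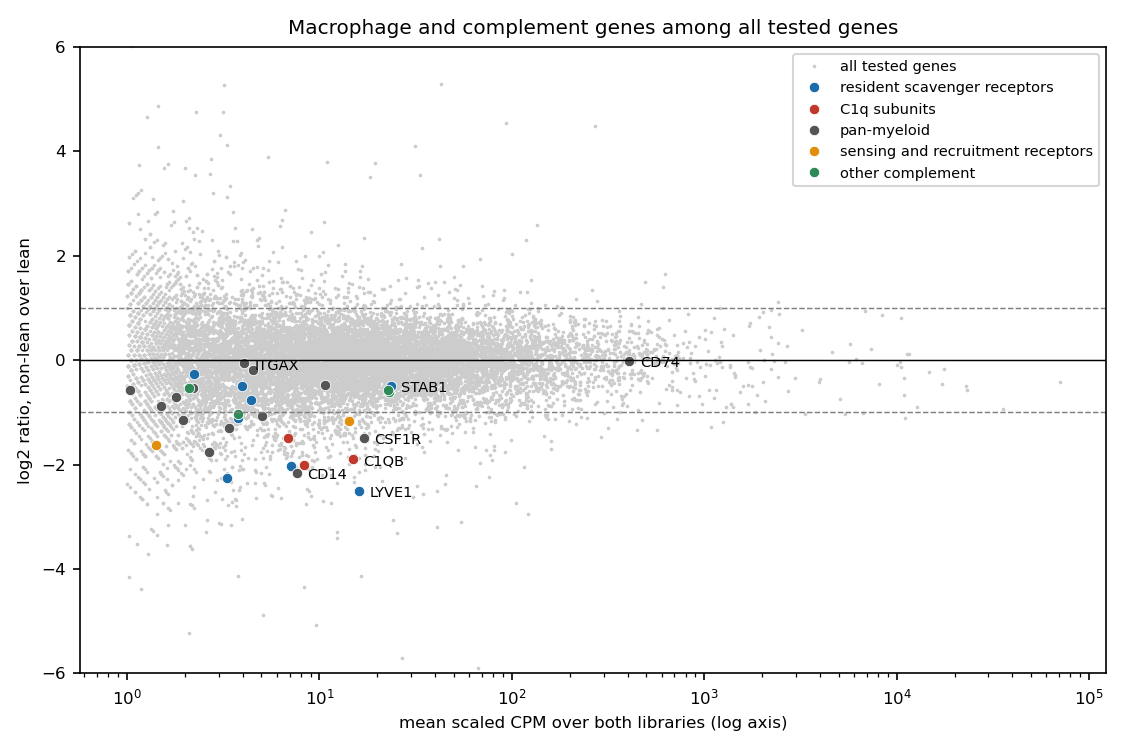
Log2 ratio against mean scaled CPM (log axis) for the tested genes (grey) and the 31 tested members (coloured by role), with dashed lines at 2-fold; 15 genes lie outside the drawn range of 6 to either side. The members lie at or below 0 at every level, from AIF1 at a mean of 1.04 to CD74 at 408.1 CPM.

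In the order of the ratios, neighbours could not be separated. The intervals of all 30 adjacent pairs overlapped, from LYVE1 at the low end to CD74 at the high end. The ends differed: the LYVE1 interval overlapped those of 7 other members and the CD74 interval those of 9. LYVE1 overlapped neither the interval of CSF1R nor that of CD163.

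Counts within a library can be set against each other without any scaling between libraries. For this CSF1R was taken as the myeloid reference, and the ratio of ratios was computed for the other 30 tested members with an exact conditional interval for counting error. There were 12 members that stood higher per CSF1R count in the non-lean library with an interval above 0, 2 that stood lower, and 16 whose interval held 0. CSF1R itself was at -1.49 and the median of all tested genes at -0.01, so a gene near that median also stands higher per CSF1R count. The share over all genes was not computed, so the 12 are not read as a result about the members. LYVE1 went from 1.09 to 0.538 counts per CSF1R count, at -1.02 [-1.52, -0.52], and CD14 from 0.501 to 0.311, at -0.69 [-1.32, -0.08]. C1QA per CSF1R count was 0.404 (lean) and 0.403 (non-lean), with an interval of -0.59 to 0.57.

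STAB1 went from 1.10 to 2.20 counts per CSF1R count, at 1.0 [0.62, 1.39], C1S from 1.09 to 2.06, and ITGAX from 0.165 to 0.445. ITGAM per count of ITGAX went from 1.0 to 0.302, at -1.73 [-2.78, -0.72]. In gene sums the alpha chains of complement receptors 3 and 4 therefore differed in their ratio by more than counting error. When only each gene's transcript model with the most counts was used, ITGAM was at -1.85 and ITGAX at -1.31. The size of the difference thus depended on the use of gene sums. The 2 genes are neighbours in the reference table. LYVE1 per count of CD163 was 5.25 (lean) and 2.0 (non-lean), at -1.39 [-2.13, -0.63]. For MRC1 and STAB1 per count of CD163 the intervals held 0, at 0.61 [-0.24, 1.47] and 0.63 [-0.03, 1.31].

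**Figure D4:**
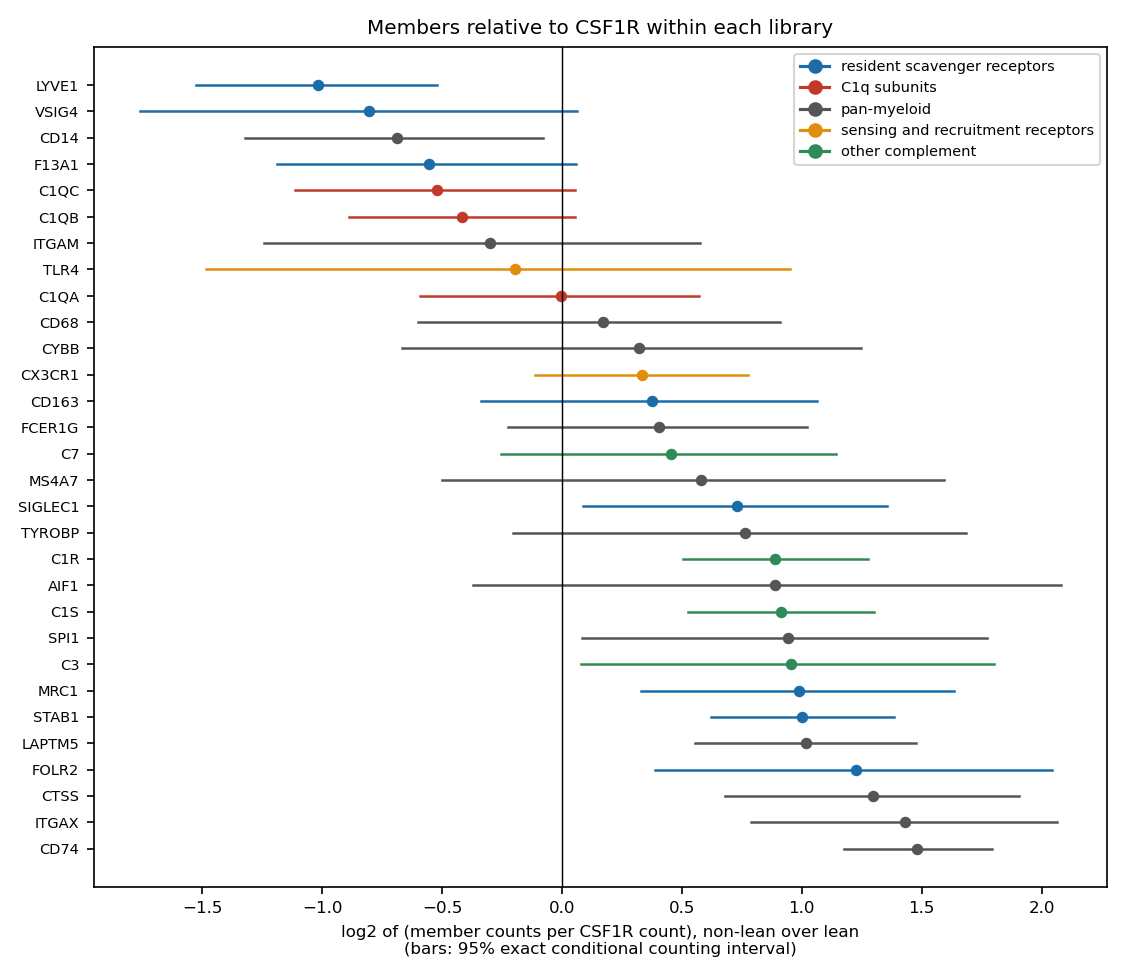
Log2 of member counts per CSF1R count, non-lean over lean library, for 30 tested members coloured by role, with 95% exact conditional counting intervals. LYVE1 lies lowest at -1.02, the C1q subunits lie between -0.52 and -0.003, and CD74 lies highest at 1.48.

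Summed over the groups, scaled CPM was 2.26-fold lower for the resident receptors, 2.08-fold lower for the pan-myeloid genes without CD74 and 3.57-fold lower for C1q. The 10 resident receptors had 1368 lean and 531 non-lean counts, and the 15 pan-myeloid genes other than CD74 had 1312 and 554. Resident counts per pan-myeloid count were 1.04 and 0.958, a log2 ratio of ratios of -0.12 [-0.33, 0.09]. Without LYVE1 it was 0.21 [-0.004, 0.43], so the sign rests on that gene. With CD74 counted among the pan-myeloid genes, which then sum to 7550 and 5988 counts, resident counts per pan-myeloid count were 0.181 and 0.0887, at -1.03 [-1.19, -0.88]. Again without CD74, the C1q subunits had 0.545 and 0.318 counts per pan-myeloid count, at -0.78 [-1.07, -0.50]. C1R, C1S, C3 and C7 together went from 1.33 to 3.10 counts per C1q count, at 1.21 [0.93, 1.51]. Per count of the resident receptors C1q went from 0.523 to 0.331, at -0.66 [-0.94, -0.37]. C1q thus stood lower in the non-lean library against each of these sums by more than counting error, while resident and pan-myeloid sums were separated by it only with CD74 included.

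The files split 21 of the members into several transcript models, and estimated counts divide reads among models that share sequence. For CD163 the leading model had 66.9 lean and 0 non-lean estimated counts, while another had 12.1 and 32.0. TYROBP had 34.0 counts on 1 model in the lean library and 18.0 on another in the non-lean library, and TLR4 likewise had 33.0 and 9 on different models. SPI1 had 20.5 and 19.7 on a pair of models in the lean library and 24.5 and 0 in the non-lean library. ITGAX was on 1 model in the lean library and on 3 in the non-lean library, with 21.9, 24.4 and 6.68 estimated counts. CSF1R had 265.1 and 104.5 counts on its first model and 115.9 and 14.5 on its second, so the second made up 30.4% (lean) and 12.2% (non-lean). Gene sums were used throughout for this reason. LYVE1, C1QB, C1R, C1S, CD14, CD68 and MRC1 were among the 17 members with a single model.

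Of further complement components, C2, C4B, CFP and the collectin COLEC12 were at least 2-fold lower, and none was that much higher. C2 had 120 lean and 39 non-lean counts, at -1.42 [-1.99, -0.90], and C4B, matched by its NCBI gene number, had 186 and 68, at -1.26 [-1.69, -0.86]. Properdin, CFP, which stabilises the alternative pathway convertase, had 65 and 19 at -1.56 [-2.41, -0.83]. By contrast factor D, CFD, had 1651 and 1453 counts at 0.00 [-0.10, 0.11], and the lectin pathway genes MASP1, MASP2, FCN3 and COLEC11 had ratios from 0.07 to 0.58 with intervals that held 0. Of the 11 tested genes of this list 4 were at least 2-fold lower and 0 higher, and the median was -0.09, or 0.054 with total counts. Over the 16 genes with a count it was -0.89, a value that includes C6, C8B, C8G and C9 with at most 2 counts in all, whose ratios depend on the prior count.

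SERPING1, the C1 inhibitor, had 1721 and 682 counts, 113.1 and 51.0 CPM, at -1.15 [-1.28, -1.02]. The protease C1R per count of SERPING1 went from 0.245 to 0.358, at 0.55 [0.28, 0.81]. Anaphylatoxin receptors were lower too, with C5AR1 at 99 and 20 counts, -2.09 [-2.89, -1.42], and C3AR1 at 25 and 7, -1.58 [-3.10, -0.40]. Among regulators that sit on most cell membranes, CD46 was at -0.01 [-0.30, 0.28], CD55 at -0.31 and CD59 at 0.30 [0.22, 0.38]. ITGB2, the beta chain shared by ITGAM and ITGAX, had 53 and 29 counts at -0.67 [-1.39, -0.004]. Of the 15 tested regulators and receptors, 3 of which are members, 7 were at least 2-fold lower and 0 higher, with a median of -0.67.

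The growth factor CSF1, which acts on CSF1R, had 357 and 129 counts at -1.28 [-1.58, -0.99]. Its counts per CSF1R count were 0.937 (lean) and 1.08 (non-lean), with an interval of -0.22 to 0.64. IL34, the second ligand of CSF1R, had 47 and 23 counts at -0.83 [-1.63, -0.10]. The chemokine CCL2, below the filter, had 20 and 2 counts at -2.85 [-6.28, -1.09], and fractalkine, CX3CL1, had 108 and 70 at -0.44 [-0.89, 0.01]. CXCL12 was at -0.18 and MIF at 0.25. CSF2, CCL3, CCL7, IL4 and IL10 had 0 counts in both libraries. Also below the filter, CCL13 had 24 and 4 counts at -2.26 [-4.39, -0.86]. IL13 went the other way with 0 and 5 counts, at 3.65 with a lower interval end of 0.06. Of the 6 tested genes of this list 1 was at least 2-fold lower, and the median was -0.48.

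Other macrophage receptors were mixed. CD209, a lectin of tissue macrophages and dendritic cells matched by its NCBI gene number, had 62 and 4 counts at -3.61 [-5.69, -2.34]. The inhibitory Fc receptor FCGR2B had 64 and 15 at -1.87 [-2.82, -1.08]. MERTK, which takes up dying cells, had 25 and 33 at 0.58 [-0.21, 1.40], and TIMD4, a marker of self-renewing macrophages, had 21 and 16 at -0.20 [-1.24, 0.80]. The transcription factor MAF had 717 and 325 counts at -0.95 [-1.15, -0.76]. Of 17 tested genes 3 were at least 2-fold lower and 1 higher, with a median of -0.39. Class II genes of the major histocompatibility complex found no match by symbol and are not analysed here. Their transactivator CIITA, which also drives CD74, had 107 and 72 counts at -0.38 [-0.84, 0.06].

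Markers of other cells moved as well, and their part in the results for macrophage genes was not tested. All 13 fibroblast genes were tested, 9 were at least 2-fold lower, the median was -1.38, and the summed level was 2087 (lean) and 1112 CPM (non-lean), with PDGFRA at -1.75 and COL1A1 at -1.90. C1R and C1S together per count of PDGFRA, DCN and COL1A1 went from 0.0857 to 0.117, at 0.45 [0.28, 0.62], and the C1q subunits on the same footing from 0.0730 to 0.0421, at -0.79 [-1.05, -0.55]. Of the 14 endothelial and lymphatic genes 11 were tested, and 0 of these were at least 2-fold lower. The median was -0.20, or -0.46 over all 14, and the sums were 312.5 and 251.1 CPM. The lymphatic genes PROX1, FLT4 and PDPN had ratios of -0.71, 0.43 and 0.44, beside LYVE1 at -2.50. Below the filter, the lymphatic chemokine CCL21 had 24 and 5 counts at -1.97 [-3.82, -0.66], RELN had 3 and 0, and MMRN1 had 5 and 3. LYVE1 per count of FLT4 went from 4.72 to 0.615, at -2.94 [-3.52, -2.35]. Per count of PROX1 the difference was smaller, from 4.28 to 1.23, at -1.80 [-2.44, -1.14].

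Blood leukocyte genes were scarce. Of 15 monocyte and neutrophil genes found, 3 were tested, LYZ, VCAN and ITGB2, and the sums were 19.8 (lean) and 11.4 CPM (non-lean). FCN1, S100A12 and CXCR2 were at 0 in both libraries, S100A8 had 7 and 5 counts, and CSF3R had 3 and 7. S100A9, below the filter, went the other way from the 3 tested genes, whose intervals lay below 0. It had 1 and 7 counts, at 2.51 [0.03, 8.49]. Of 12 dendritic and mast cell genes 3 were tested, with sums of 13 and 4.86 CPM, and the mast cell protease CPA3 had 75 and 21 counts at -1.63. Lymphocyte genes had sums of 18.5 and 9.12 CPM, with MS4A1 and CD79A at 0 in both libraries and CD3E at 14 and 11 counts. CD4, which macrophages also carry in primates, had 136 and 26 counts at -2.18 [-2.87, -1.59]. It supplied 8.94 (lean) and 1.94 CPM (non-lean) of the lymphocyte sums. CD4 per count of CD3D, CD3E and CD3G went from 6.18 to 1.44, at -2.10 [-3.27, -0.90]. PTPRC, the common leukocyte antigen, had 29 and 11 counts at -1.17 [-2.36, -0.17].

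The 24 pan-leukocyte signalling genes, of which 12 were tested, had a median of -0.41, with 2 at least 2-fold lower and 0 higher. CYBA, the partner of CYBB that most cells carry, had 379 and 245 counts at -0.44 [-0.68, -0.21]. Muscle fibre genes had a median of -0.32 over 12 genes, from RYR1 at -0.99 to TNNT1 at 1.11, with ACTA1 at -0.42. Of the 9 tested adipocyte genes 4 were at least 2-fold lower, ADIPOQ with 46 and 3 counts and PLIN1 with 166 and 23 among them, while the list median was -0.19, or -1.27 over all 10 genes with LEP (14 and 2 counts), and the sums were 1455 and 1553 CPM.

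**Figure D5:**
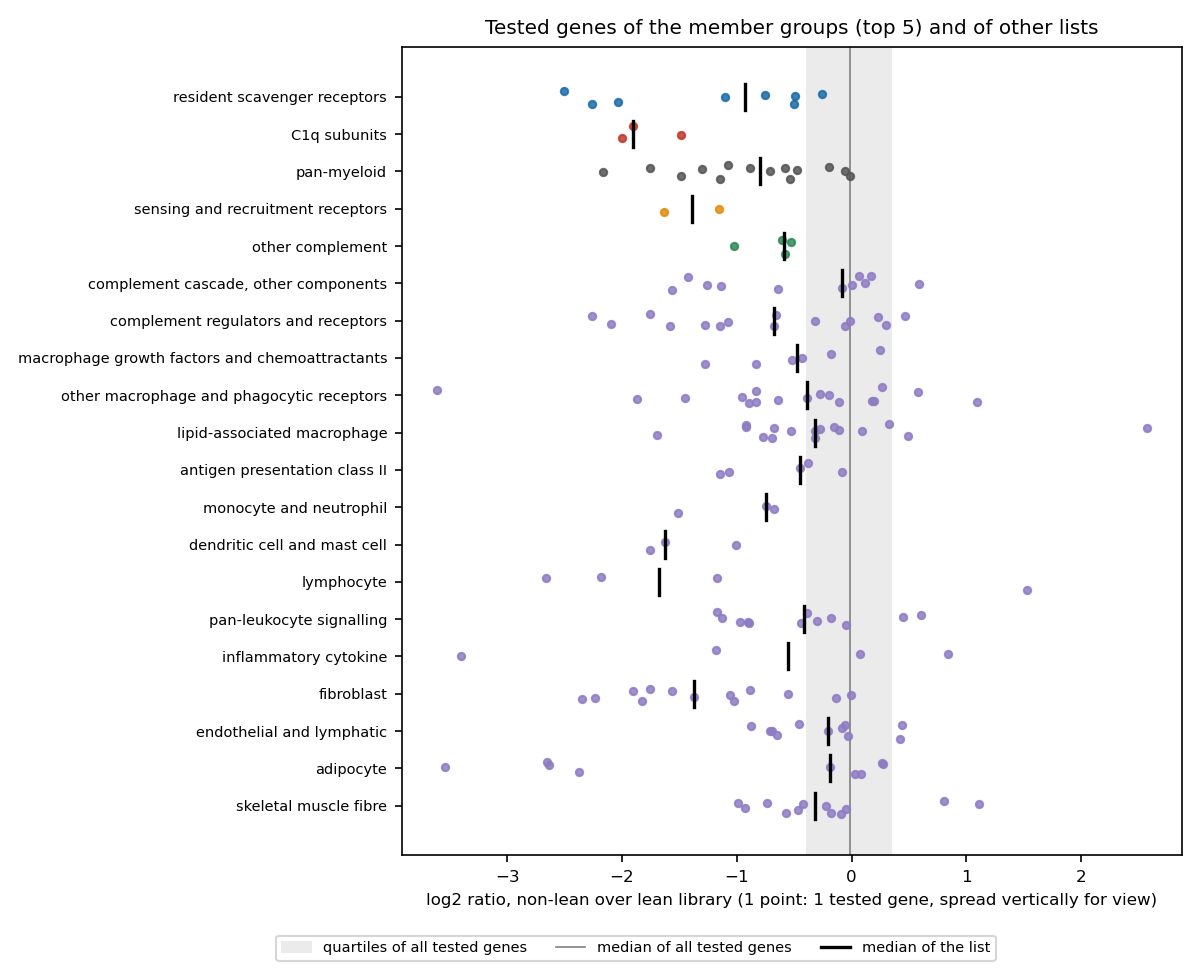
Log2 ratios of tested genes in the 5 member groups (coloured) and 15 other lists, with a black bar for each list's median, the quartiles of all tested genes shaded (-0.39 to 0.34) and points spread vertically for view. The C1q subunits (median -1.90) and fibroblast genes (-1.38) lie left of the shaded band, while endothelial and adipocyte medians lie inside it. Of the 9 adipocyte genes drawn, 4 were at least 2-fold lower.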

How the data were processed

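Per the labels' protocols, polyadenylated RNA was fragmented, copied from random hexamers and sequenced with the BGISEQ-500. No strand-marking step is named, so reads of overlapping genes (for STAB1, F13A1, SPI1, LAPTM5 and C7 the reference table lists overlapping coding genes) cannot be told apart. The authors deposited expected counts, which are estimated counts per RefSeq transcript, unnormalised, in 76183 rows per library. Trim Galore 0.6.6, RSEM 1.3.3 and STAR 2.7.8a appear in the submitters' processing notes. The sources used here give neither their roles nor the genome build or filters.

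Transcript values were summed per gene name and rounded. The 24 symbols that had become dates were kept as given. Genes listed under a placeholder were matched through their NCBI gene number or transcripts in a RefSeq gene table of T2T-MFA8v1.1, used for names and gene order only. Scaling used edgeR 4.0.16 (R 4.3.3) and its trimmed mean of M-values, with factors of 0.952 for lean and 1.05 for non-lean, and DESeq2 1.42.0 size factors served as an alternative. Log2 ratios used a prior count of 0.5. Intervals at 95% are Clopper-Pearson intervals of the split of the summed count, or exact conditional intervals for ratios of ratios (scipy 1.17.1, Python 3.11.15). As PCR copies were not marked by molecular identifiers, reads are not independent molecules, and all intervals and floors speak of counting error alone. The interval code was tested on simulated data. The members and all lists were chosen with earlier results of these data known, and every member could be named. Of other lists the highest, lowest and most abundant tested genes and defining markers could be named. Further genes, among them CD209, CD4, C4B, MERTK, TIMD4, MAF, CYBA, CFP, C2 and RYR1, and the pairs of genes set against each other, were chosen after values were seen. Some genes of the other lists are not reported here by name, although they count in their lists.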

Additional observations from a re-analysis of the deposited data

How the results depend on the processing

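No paired analysis was possible because each group has 1 library. Each member's ratio below 0 stayed below 0 with DESeq2 size factors, a prior count of 5 and no rounding, for all 31 tested members. With a prior count of 5, 12 members were at least 2-fold lower, beside 813 of the 13703 tested genes. CD163 was then at -0.996, and at -0.962 with total counts, so its call as at least 2-fold lower depends on these settings. Using only the leading transcript model moved 8 of 31 members outside their intervals, with SPI1 at 0.38 and CD74 at 0.11 above 0. CSF1R, the myeloid reference, was among the 8, at -1.145 under that setting. The ratios per CSF1R count were not recomputed there, so they hold for gene sums only. That setting put CD163 at -6.89, VSIG4 at -6.04, TYROBP at -5.92 and TLR4 at -5.88, since the models that lead over both libraries had 0 in the non-lean library, and ITGAX at -1.31. The median of the resident receptors was -1.52 there, and over all genes 1814 were at least 2-fold lower and 1332 higher. With a mean CPM of at least 5, 14 members were left, of which 9 were at least 2-fold lower and 13 had an interval below 0, and the resident receptor median was -2.03 over fewer genes. Over all genes 483 were then at least 2-fold lower and 230 higher, and 3158 had an interval below 0. The number of all genes at that level was not counted, so no share is set beside the members. Without a filter 1081 genes were at least 2-fold higher. Medians of other lists that changed sign were the complement cascade at 0.054 with total counts, and the inflammatory cytokine and adipocyte lists at 0.073 and 0.055 with a mean CPM of at least 5. Depth limits the 7 members with fewer than 10 counts in both libraries, and MS4A4A alone among them has an interval that excludes 0.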

Other observations

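A few immune genes stood higher in the non-lean library beside the lower macrophage markers. SPP1, or osteopontin, a secreted protein made by lipid-associated macrophages and by other cells, had 27 lean and 143 non-lean counts, 1.77 and 10.7 CPM, at 2.57 [1.99, 3.24]. HMOX1, which breaks down haem taken up through CD163, had 67 and 126 counts at 1.09 [0.66, 1.55], and IL18 had 151 and 238 at 0.84 [0.54, 1.15]. Of the 16 lipid-associated macrophage genes, all tested, 1 was at least 2-fold higher, SPP1, and 1 at least 2-fold lower, GPNMB, with 330 and 89 counts at -1.70 [-2.06, -1.36]. The list median was -0.32. Its lysosomal protease CTSD was at 0.49 [0.45, 0.54] and CTSB at -0.11. The cytotoxic genes GZMB (8 and 21 counts) and PRF1 (3 and 11) were at 1.53 [0.35, 2.96] and 1.90 [0.14, 4.54], and the costimulator CD80 (5 and 21) at 2.15 [0.81, 4.02], while CD86 (27 and 11) was at -1.07 [-2.27, -0.05]. PRF1 and CD80 were below the filter, and these genes were singled out after their values were seen.

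Of the 4 tested inflammatory genes SOCS3 and CASP1 were at least 2-fold lower, and IL1B, below the filter, was lower too. IL1B had 27 lean and 3 non-lean counts, at -2.79 [-5.35, -1.28], and SOCS3, an inhibitor of cytokine signalling, had 343 and 28, at -3.40 [-4.04, -2.87]. TNF had 1 and 0 counts and IL6 had 5 and 2, too few for a comparison.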
